A study of Mus musculus with 16 samples.

Results

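The genes described are 10 of the lysosomal protein-degradation machinery: the cysteine cathepsins Ctsb, Ctsc, Ctsh, Ctsl, Ctss and Ctsz, the aspartic protease Ctsd, the serine carboxypeptidase Ctsa, the asparaginyl endopeptidase Lgmn, and Cst3, the gene of the cathepsin inhibitor cystatin C. They were taken by name from the expression tables of 16 RNA-seq libraries of mouse splenic dendritic cells (DCs). All 10 were listed among the 17128 genes of the plasmacytoid DC (pDC) table and the 17721 genes of the conventional DC (cDC) table. All 10 also passed the filter of a mean of at least 1 TPM (a transcript share scaled to a fixed total per library) in both tables.

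The libraries came from C57BL/6 mice of 6 to 8 weeks. Control mice (WT) carried Trim33 fl/fl, and conditional knockout mice (cKO, labelled KO or Trim33-/-) carried Trim33 fl/fl with Itgax-Cre, so the floxed alleles were shared by all groups. The Itgax (CD11c) promoter drives Cre in CD11c-expressing cells, not in 1 DC subset alone, and the control mice carried no Cre. Sorted pDCs were CD11c+ SiglecH+. Type 1 conventional DCs (cDC1s) were CD11c+ SiglecH- MHC II+ CD24+ CD172a-, and type 2 (cDC2s) were CD11c+ SiglecH- MHC II+ CD24- CD172a+. Each genotype was represented by 3 pDC libraries, 2 cDC1 libraries and 3 cDC2 libraries. Each library was made from cells pooled over several mice, with more mice per pool for cKO than for WT, so the spread between libraries is that between pools.

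Lysosomal proteases cut endocytosed proteins and the invariant chain (Cd74) that occupies newly made MHC class II molecules. In DCs the peptides that result are loaded onto MHC class II for display to CD4+ T cells. Most of these enzymes are made as inactive precursors that become active in acidic endosomes, and cystatins block the cysteine cathepsins by filling their active site. RNA level therefore measures neither the mature enzyme nor its activity.

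The bases before the transcription start were read for the members because most of the proteases differed together between the cDC subsets. RefSeq windows (GRCm38.p6) were held for 8 of the 10 members, 10 windows in all. Ctsb and Ctsh had none in the table. The E-box CACGTG is the core of the element bound by the MITF and TFE family, to which the lysosomal gene regulator TFEB belongs. It stood in the 250 bases before the start in 4 of the 10 windows (of Ctsa, Ctsd, Ctsl and Lgmn), against 6.02% of 32851 windows of that length. Ctsd held it at −245 and −98, Ctsl at −236, Lgmn at −49 and Ctsa at −12, where −1 is the last base before the start of that window's transcript. Of these windows, the starts of those of Ctsa, Ctsl and Lgmn lie inside the gene's span, downstream of its outermost start. The longer form, the same E-box with GT before it and AC after it, stood in 0 of the 10 windows and in 0.24% of all windows. The letters GAGGAAGT, a form of the site of PU.1 (a myeloid transcription factor), were found once on the opposite strand, in Ctsc at −151, and in 2.44% of all windows. CCAAT, a common promoter box, stood in 2 of the 10 windows, against 33.8% of all windows. It was in Ctsz at −234 and, on the opposite strand, in Lgmn at −88 of a window other than that of the E-box. These 4 motifs were the ones searched, on both strands, and were chosen with results of these data known. A match is a run of letters, not a measured binding site, and a link of the matches to the subset differences was not tested. The stretches around each match other than CCAAT are printed 5′ to 3′ on the gene's strand, with the match in capitals. For Ctss, the invariant-chain protease of DCs, and Cst3, the inhibitor among the members, the exon-free bases nearest the start are printed, and their windows held no match. By the GENCODE annotation of the same build, the stretches of Ctsa, Ctsl and Ctsd at −98 lie in untranslated parts of exons, since transcripts also start further upstream, and the others lie in no exon.
Ctsa at chr2:164833749-164833778 (+): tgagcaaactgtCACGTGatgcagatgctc
Ctsc at chr7:88277923-88277952 (+): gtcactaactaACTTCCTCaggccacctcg
Ctsd at chr7:142388048-142388077 (-): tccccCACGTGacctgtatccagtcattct
Ctsd at chr7:142387908-142387937 (-): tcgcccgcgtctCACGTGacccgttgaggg
Ctsl at chr13:64370739-64370768 (-): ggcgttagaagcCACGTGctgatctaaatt
Ctss at chr3:95526666-95526785 (+): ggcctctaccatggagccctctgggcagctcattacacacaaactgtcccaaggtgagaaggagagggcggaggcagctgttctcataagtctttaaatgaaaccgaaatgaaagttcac
Lgmn at chr12:102439124-102439153 (-): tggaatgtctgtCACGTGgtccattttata
Cst3 at chr2:148875577-148875631 (-): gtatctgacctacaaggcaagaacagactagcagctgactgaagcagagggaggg

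Read depth was not listed. An estimate of 18 to 20.1 M reads per library came from the steps between low FPKM values, at which a transcript of 2000 bases with 3 reads would have 0.137 to 0.179 TPM. The lowest member value, 2.87 TPM for Ctsl, was above that level. Trim33 was lower in every cKO library than in every WT library of its subset: 11.7 to 16.5 against 20.6 to 23.8 TPM in pDCs, 7.71 and 7.88 against 15.5 and 18.2 TPM in cDC1s, and 7.13 to 8.07 against 17.2 to 20.6 TPM in cDC2s. It was called in cDC1s and cDC2s. In pDCs its adjusted p was 0.0301 and did not pass. With the replicate number as a block, which treats same-numbered libraries as pairs, it was 0.00361 and passed. Each label was checked against markers of its subset. For pDCs, 8 markers summed to 14037 to 15972 TPM in pDCs and 161 to 322 TPM in cDCs. Summed cDC1 markers (8 genes) were at 2604 to 2685 TPM in WT cDC1s, 2006 to 2097 TPM in cKO cDC1s and 395 to 587 TPM in cDC2s. The 8 cDC2 markers summed to 1402 to 1720 TPM in cDC2s and 48.6 to 65.3 TPM in cDC1s, but to 1997 to 2279 TPM in pDCs, where Cd4 alone was at a mean of 1031 TPM in WT, so that list separates cDC2s from cDC1s and not from pDCs. Macrophage and monocyte markers (17 genes, all listed and none at 0 throughout a group) summed to 516 to 800.2 TPM in cDC1s and to 1485 to 3870.0 TPM in cDC2s. Red-cell genes ranged most, from 384 TPM in WT cDC1 library 2 to 10736 TPM in WT cDC2 library 2. Without that library the members called numbered 1 in cDC1s, 0 in cDC2s and 8 between the WT cDC subsets, the counts given with it. Tests were made with limma on log2(TPM + 1). A gene was called where its Benjamini-Hochberg adjusted p did not exceed 0.01 and its log2 fold change was 0.5 or more in either direction.

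**Figure D1:**
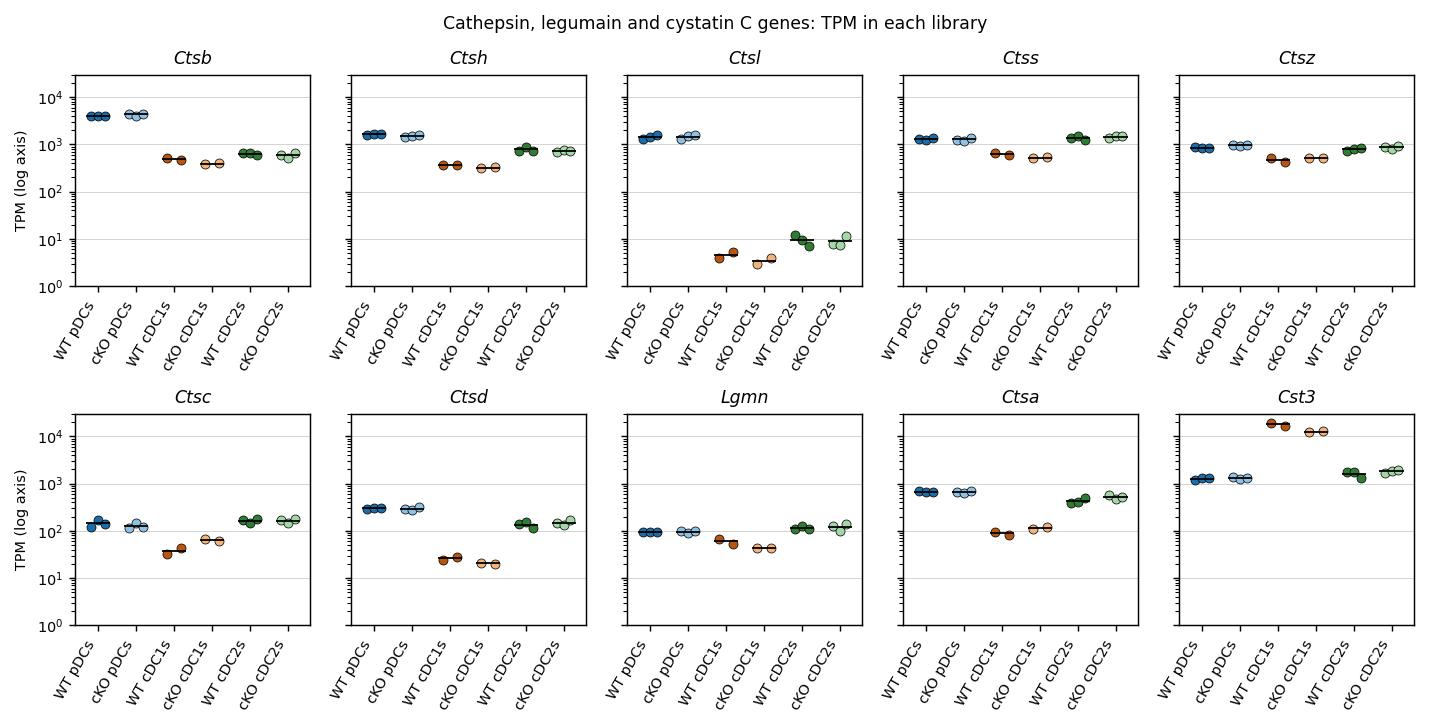
TPM of each member in each of the 16 libraries (points, log axis), with a line at the group mean; WT and cKO libraries of pDCs, cDC1s and cDC2s are set side by side. Ctsl lies between 1271 and 1586 TPM in pDCs and under 12 TPM in all cDC libraries, and Cst3 lies between 12438 and 18883 TPM in cDC1s and at or below 1932 TPM in the other libraries.

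The cysteine endopeptidases and exopeptidases were examined first. Ctsb (gene ID 13030, chr14:63122462-63145923), a cysteine protease that cuts within proteins and from their carboxyl end, was the most abundant protease of pDCs. It was at 3913, 3973 and 4076 TPM in WT pDCs and 4470.2, 4047 and 4440.1 TPM in cKO pDCs. In WT and cKO cDC1s it was at 522 and 475 TPM and 383 and 396 TPM, and in WT and cKO cDC2s at 653, 647 and 583 TPM and 599.9, 510.2 and 668 TPM. The pDC libraries were far above all cDC libraries, and WT pDCs had a mean 6.35 times that of WT cDC2s. The pDC and cDC tables were made separately, so levels set across them are given without a test. Beside these pDC levels, the 17 macrophage and monocyte markers summed to 5071 to 6109 TPM in pDCs. Ly6c2, which pDCs also express, held a mean of 5013 TPM of this in WT, while C1qa was at 18.7 and Lyz2 at 50.2 TPM. The part of such cells in the pDC levels was not tested.

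Ctsl (gene ID 13039, chr13:64361890-64370772) encodes a cysteine endopeptidase that degrades the invariant chain in thymic epithelium. Its values were 1271, 1401 and 1586 TPM in WT pDCs and 1295, 1483 and 1539 TPM in cKO pDCs. They were 3.93 and 5.17 TPM in WT cDC1s, 2.87 and 4.01 TPM in cKO cDC1s, 11.9, 9.38 and 7.0 TPM in WT cDC2s and 7.86, 7.27 and 11.4 TPM in cKO cDC2s. No other member was spread as widely among the subsets: the mean of WT pDCs was 151 times that of WT cDC2s and 312 times that of WT cDC1s. Ctss (gene ID 13040, chr3:95526786-95556405), the endopeptidase that trims the invariant chain in DCs and B cells, showed no such gap. It was at 1312, 1252 and 1375 TPM in WT pDCs, 1237, 1206 and 1371 TPM in cKO pDCs, 1382, 1524 and 1236 TPM in WT cDC2s and 1377, 1528 and 1488 TPM in cKO cDC2s. The cDC1 libraries were the low ones, with 654 and 609.7 TPM in WT and 505 and 540.1 TPM in cKO. Ctss over Ctsl within a library was accordingly 0.931 on average in WT pDCs, 142 in WT cDC1s and 152 in WT cDC2s.

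Of the exopeptidases, Ctsh (gene ID 13036, chr9:90054267-90076095), an aminopeptidase, had its highest values in pDCs and its lowest in cDC1s. It was at 1613, 1652 and 1662 TPM in WT pDCs and 1413, 1527 and 1575 TPM in cKO pDCs, which did not overlap. In cDC2s it was at 739.8, 889 and 739.5 TPM (WT) and 679, 758 and 723 TPM (cKO), and in cDC1s at 373 and 358 TPM (WT) and 312 and 325 TPM (cKO). Ctsz (gene ID 64138, chr2:174427494-174439039), a carboxypeptidase, varied least among the proteases. Its pDC values were 885, 843 and 844 TPM (WT) and 981, 915 and 978 TPM (cKO), and its cDC2 values 728, 783 and 835 TPM (WT) and 870.2, 803 and 906 TPM (cKO). In cDC1s it was at 525 and 430.4 TPM (WT) and 523 and 506 TPM (cKO), so that these groups overlapped. Ctsc (gene ID 13032, chr7:88278024-88315861), the dipeptidyl peptidase that activates granzymes and other granule proteases, had 32.1 and 42.9 TPM in WT cDC1s and 66.5 and 60.4 TPM in cKO cDC1s. The other groups were higher, at 167, 148 and 179.5 TPM in WT cDC2s, 173, 144 and 175 TPM in cKO cDC2s, 123, 169 and 141 TPM in WT pDCs and 116, 149 and 123 TPM in cKO pDCs. Every Ctsc value of cDC1s lay below every value of the other subsets.

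The members outside the cysteine cathepsins included Ctsd (gene ID 13033, chr7:142375910-142387827), an aspartic endopeptidase. It was at 289, 302 and 306 TPM in WT pDCs, 292, 276 and 315 TPM in cKO pDCs, 142, 151 and 116 TPM in WT cDC2s and 145, 131 and 169 TPM in cKO cDC2s. In cDC1s it reached only 24.8 and 28.2 TPM (WT) and 20.7 and 20.4 TPM (cKO), so that WT pDCs had a mean 11.3 times that of WT cDC1s. Ctsa (gene ID 19025, chr2:164832872-164841032), a serine carboxypeptidase that also stabilises the sialidase Neu1, followed the same order. Its values were 690.3, 669 and 671 TPM (WT pDCs), 664, 646 and 683 TPM (cKO pDCs), 387, 416 and 494 TPM (WT cDC2s) and 573, 475 and 532 TPM (cKO cDC2s). In WT and cKO cDC1s they were 95.1 and 83.5 TPM and 112 and 121 TPM, without overlap. Lgmn (gene ID 19141, chr12:102394082-102439728), which cuts after asparagine and matures other cathepsins, was at 96.4, 95.7 and 94.1 TPM in WT pDCs, 102, 91.0 and 98.2 TPM in cKO pDCs, 111, 124 and 108 TPM in WT cDC2s and 126, 99.8 and 139.5 TPM in cKO cDC2s. In cDC1s it was at 67.7 and 52.1 TPM (WT) and 43.5 and 42.8 TPM (cKO), below every other library.

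Cst3 (gene ID 13010, chr2:148871722-148875512) ran the other way. Its values were 18883 and 16908 TPM in WT cDC1s and 12438 and 12928 TPM in cKO cDC1s, against 1799.6, 1761 and 1328 TPM in WT cDC2s and 1642, 1884 and 1932 TPM in cKO cDC2s. In pDCs they were 1180.2, 1306 and 1311 TPM (WT) and 1357, 1234 and 1337 TPM (cKO). By mean TPM, Cst3 ranked 3 of 17721 genes in WT cDC1s and 4 in cKO cDC1s, and it took 1.79% ± 0.14 (SD, n = 2) of all transcripts in WT cDC1s. The ranks were 100 in WT cDC2s and 126 of 17128 in WT pDCs. The highest-ranked protease was Ctsb in pDCs (17 in WT), and Ctss in WT cDC1s (197) and WT cDC2s (119).

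The balance of inhibitor and target was then read within each library, where the scaling cancels. The 6 cysteine cathepsins summed to 9364 ± 291 TPM in WT pDCs (SD, n = 3), 3754 ± 219 TPM in WT cDC2s (SD, n = 3) and 2016 ± 134 TPM in WT cDC1s (SD, n = 2). Divided by Cst3 of the same library, that sum was 7.41 ± 0.307 in WT pDCs, 2.34 ± 0.33 in WT cDC2s and 0.113 ± 0.00131 in WT cDC1s. In cDC1s alone, therefore, transcripts of the inhibitor outnumbered those of the 6 enzymes together, 8.87 to 1 in WT and 7.0 to 1 in cKO libraries. The cKO libraries had 7.35 (pDCs), 2.10 (cDC2s) and 0.143 (cDC1s) cathepsin transcripts per Cst3 transcript. The WT and cKO ranges of this ratio overlapped in pDCs and cDC2s, and not in cDC1s. For single genes, the share without overlap was 76.2% in cDC1s, 27.5% in pDCs and 35.5% in cDC2s. With 2 libraries against 2, no exact permutation test can go below p = 0.333, so the cDC1 ratio is given without one.

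**Figure D2:**
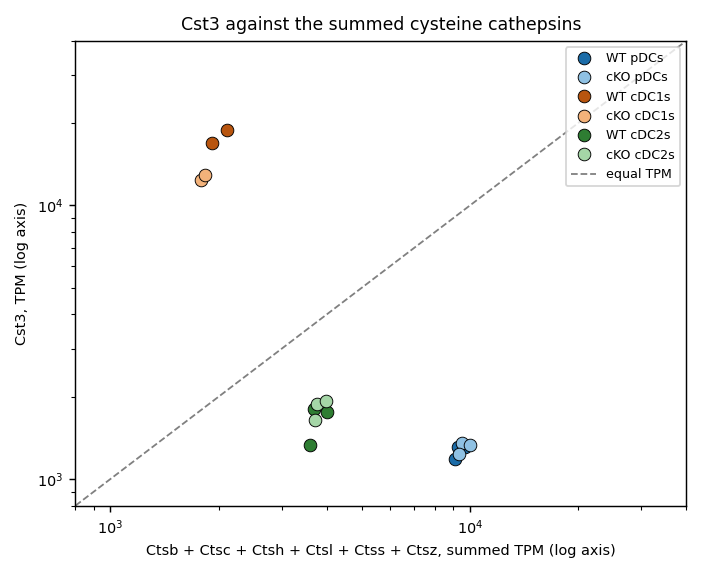
Cst3 TPM against the summed TPM of the 6 cysteine cathepsins in each library (both axes log), with a dashed line at equal TPM. The 4 cDC1 libraries lie above the line, and the 12 pDC and cDC2 libraries below it.

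The make-up of the protease pool also differed among the subsets. The 9 proteases made up 1.04% of all transcripts in WT pDCs, 0.444% in WT cDC2s and 0.219% in WT cDC1s. Of their sum in WT pDCs, Ctsb held 38.2%, Ctsh 15.7%, Ctsl 13.6% and Ctss 12.6%. Ctss led in WT cDC2s at 31.1% and in WT cDC1s at 28.9%, and Ctsl held 0.213% and 0.209% there. Ctsz had 21.7% of the sum in WT cDC1s, 17.7% in WT cDC2s and 8.22% in WT pDCs. These shares and all comparisons of level between genes are on the TPM scale, which is per transcript length.

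**Figure D3:**
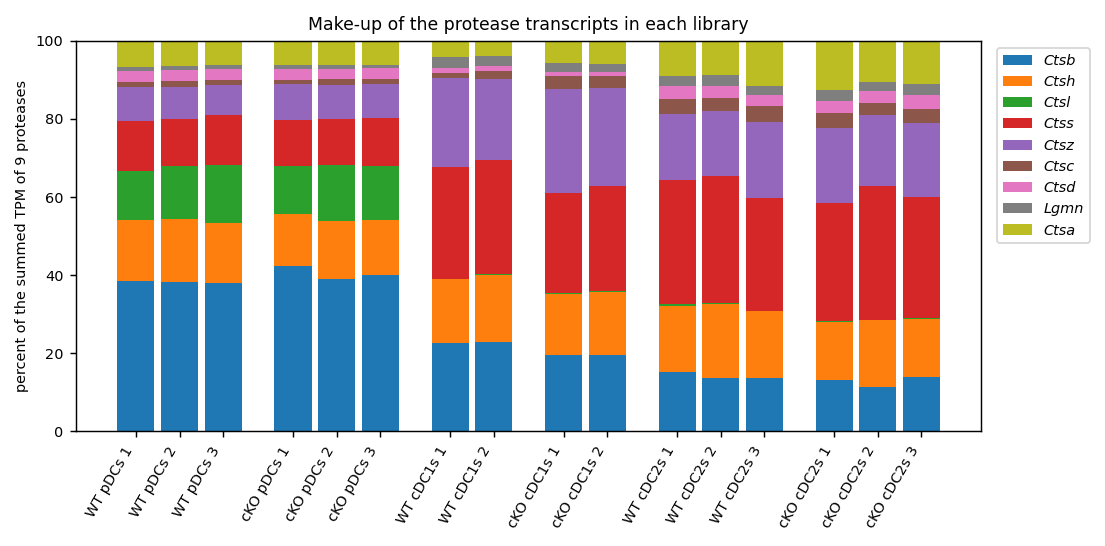
Share of each of the 9 proteases in their summed TPM (stacked to 100%), 1 bar per library, ordered by subset and genotype. Ctsb takes 37.9% to 42.3% in pDC libraries, and Ctsl is too small to see well in cDC libraries (at most 0.276%).

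The next comparison asked how the cDC subsets differ in these genes without loss of Trim33. Between WT cDC1s and WT cDC2s, 8 of the 10 members were called, against 31.7% of the 11411 genes tested. Cst3 alone had the higher level in cDC1s, a direction held by 10.9% of genes, and 7 proteases had the lower one, held by 20.8%. The log2 difference of Cst3 was 3.47 (SE 0.14, adjusted p 3.92e-08). The largest differences among the proteases were those of Ctsd at −2.32 (SE 0.14, adjusted p 3.94e-07), Ctsa at −2.26 (SE 0.12, adjusted p 2.47e-07) and Ctsc at −2.12 (SE 0.14, adjusted p 9.74e-07). Ctss (−1.12), Ctsh (−1.10), Lgmn (−0.93) and Ctsz (−0.72) were also lower in cDC1s, with adjusted p values of 1.14e-05 to 6.10e-04. Ctsl at −0.89 (SE 0.24, adjusted p 0.0103) and Ctsb at −0.33 (SE 0.12, adjusted p 0.0404) did not pass. Ctsl passed without WT cDC2 library 3 (adjusted p 0.00377) and without cKO cDC2 library 3 (0.00839). In all 10 members the WT libraries of the subsets did not overlap, which held for 62.3% of all genes. Over all genes tested the median difference was −0.17, and over the 10 members it was −1.02.

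In cKO libraries the same contrast gave all 10 members, 1 higher and 9 lower in cDC1s, against 28.3% of genes called (14.5% higher and 13.8% lower). All 10 were without overlap between the cKO libraries of the subsets, as were 69.2% of genes. Cst3 was at 2.80 (SE 0.14, adjusted p 2.02e-07) and Ctsd at −2.78 (SE 0.14, adjusted p 1.64e-07). The smallest difference was that of Ctsb, −0.60 (SE 0.12, adjusted p 0.00224). Ctsb lost its call without either cKO cDC1 library (adjusted p up to 0.0271), and Ctsl, at −1.14 (SE 0.24, adjusted p 0.00301), without cKO cDC1 library 1 (0.0425) or cKO cDC2 library 3 (0.0112), under quantile normalization (0.0129) and with the replicate number as a block (0.0114). In bulk libraries a change in the share of a contained cell type cannot be told apart from a change in RNA per cell. Of the 17 macrophage and monocyte markers, 11 were lower in WT cDC1s than in WT cDC2s and 0 higher, and in cKO libraries 14 were lower and 1 higher. C1qa was at a mean of 115 TPM in WT cDC2s and 11.8 TPM in WT cDC1s. The part of such cells in the protease differences was not tested.

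**Figure D4:**
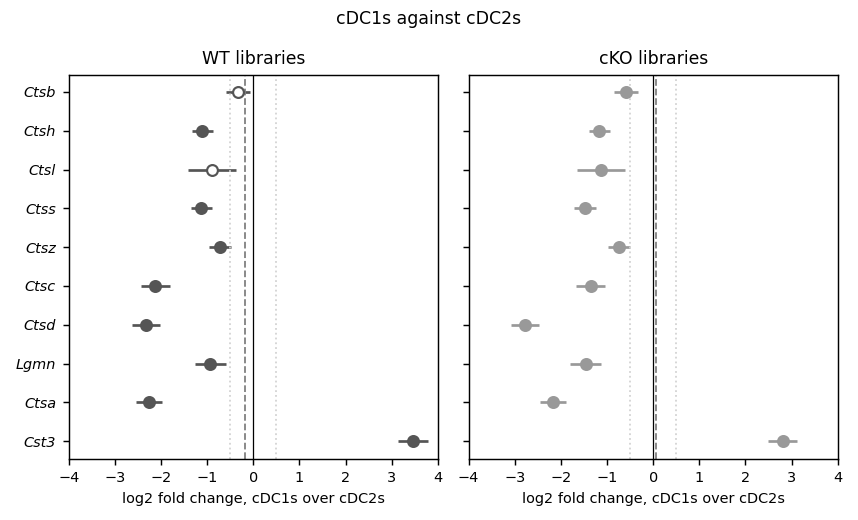
Log2 fold change of cDC1s over cDC2s for each member in WT (left) and cKO (right) libraries, with 95% intervals from limma; filled points were called, the dashed line is the median of all genes and dotted lines mark ±0.5. Cst3 is at 3.47 and 2.80, and all 9 proteases are below 0 on both sides.

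Loss of TRIM33 was then compared with WT in each subset. In cDC1s, 1 of the 10 members was called, against 22.4% of genes (15.8% higher and 6.56% lower). Ctsc rose 1.69-fold, 0.76 (SE 0.16, adjusted p 0.00407) as log2, from 37.5 ± 7.59 to 63.5 ± 4.31 TPM (SD, n = 2 each). That call was lost without WT cDC1 library 1 (adjusted p 0.0365), cKO cDC1 library 1 (0.0414) or cKO cDC1 library 2 (0.0184), and under median-of-ratios scaling (0.0135) or quantile normalization (0.0139), with the value above 0 in each. Cst3 averaged 17896 ± 1396 TPM in WT cDC1s against 12683 ± 347 TPM without TRIM33 (SD, n = 2 each), and its difference of −0.49 (SE 0.16, adjusted p 0.0306) did not pass. The libraries of the 2 genotypes did not overlap in 8 members: Ctsa and Ctsc had the cKO libraries above WT, and Ctsb, Ctsd, Ctsh, Ctss, Lgmn and Cst3 below. The same held for 76.2% of all genes, so 8 of 10 is close to the background. The cKO libraries lay below WT in 24.1% of all genes and above in 52.1%.

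Over the whole table the median log2 fold change in cKO cDC1s was 0.17, while the members' median was −0.30. Relative to the median of all genes, Ctsc was at 0.58, Ctsa at 0.20, Ctss at −0.45, Ctsd at −0.52, Ctsb at −0.53, Lgmn at −0.63 and Cst3 at −0.67. Median-of-ratios scaling moved the median of all genes to 0.02 and that of the members to −0.46. Of the genes called in cDC1s, 70.7% were higher as deposited, 50.0% under that scaling and 52.4% under quantile normalization. Without adjustment 7 members had a p under 0.05, as had 48.6% of all genes. Among the members without a call the 95% intervals were those of Ctsa (0.07 to 0.68), Ctsb (−0.64 to −0.07), Ctsd (−0.68 to −0.01), Ctsh (−0.45 to 0.05), Ctss (−0.53 to −0.01), Ctsz (−0.15 to 0.38), Lgmn (−0.82 to −0.08) and Cst3 (−0.85 to −0.14). Ctsl had the widest interval, −0.90 to 0.25. Beside these values, 13 of 13 genes of mature DCs were called lower in cKO cDC1s. Their sum was 2319 and 3895 TPM in the WT libraries and 615 and 763 TPM in the cKO libraries. Of the 8 cDC1 markers, 3 were called lower and 0 higher in cKO cDC1s, and of 7 pDC markers tested, 3 were higher and 2 lower. Of all genes, 6.56% were called lower and 15.8% higher. The part of these differences in the values of the members, or of the other genes given below, was not tested.

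In cDC2s, 0 of the 10 members were called by limma (7.15% of genes were), and 1 had an unadjusted p under 0.05, as had 34.1% of all genes. It was Ctsa, at 433 ± 55.2 TPM in WT and 527 ± 48.8 TPM in cKO cDC2s (SD, n = 3 each), 0.29 (SE 0.11, adjusted p 0.099). The WT and cKO libraries overlapped in all 10 members, while 35.5% of all genes were without overlap. Log2 fold changes ran from −0.13 (Ctsh) to 0.29 (Ctsa), and the 95% intervals of the 10 members together spanned −0.55 to 0.54. In the same libraries the macrophage and monocyte markers summed to 1485 to 2250.1 TPM in WT and 2874 to 3870.0 TPM in cKO. Of the 17, 4 rose and 0 fell, led by Ccr2 (1.5), Lyz2 (1.40) and Fcgr1 (1.15), and their part in the member values was not tested.

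In pDCs, 0 of the 10 members were called by limma (1.05% of genes were), and 1 had an unadjusted p under 0.05, as had 20.8% of all genes. With the replicate number as a block the calls were 0 of 10 members and 2.96% of genes, and 2 members, Ctsz (adjusted p 0.0806) and Ctsc (0.0861), had an unadjusted p under 0.05, as had 30.8% of all genes. Within the 3 pairs of same-numbered libraries, Ctsb and Ctsz were higher in cKO in 3 of 3, and Ctsc, Ctsh and Ctss lower in 3 of 3. The share of all genes with 1 direction in 3 of 3 was not taken, so these directions are not read as a result about the members. Without the block, Ctsz averaged 857 ± 23.9 TPM in WT pDCs against 958 ± 37.1 TPM without TRIM33 (SD, n = 3 each), 0.16 (SE 0.05, adjusted p 0.152), and Ctsh averaged 1643 ± 25.7 and 1505 ± 83.0 TPM, −0.13 (SE 0.06, adjusted p 0.271). These were the members whose libraries did not overlap, against 27.5% of all genes. For Ctsl, the pDC protease, the interval was −0.21 to 0.25, and for Ctsb it was −0.03 to 0.26. All 10 members together spanned −0.46 to 0.29.

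Whether the effect of cKO differed between cDC1s and cDC2s was tested as the cDC1 effect minus the cDC2 effect. By limma 0 of the 10 members passed, against 2.56% of genes, and 5 had an unadjusted p under 0.05, as had 30.7% of all genes. Ctsc was nearest, at 0.76 (SE 0.20, adjusted p 0.0396), followed by Cst3 at −0.66 (SE 0.20, adjusted p 0.0611). Lgmn was at −0.53 (SE 0.22, adjusted p 0.127), Ctsd at −0.47 (SE 0.19, adjusted p 0.139) and Ctss at −0.36 (SE 0.15, adjusted p 0.137). The median of all genes in this contrast was 0.22 and that of the members −0.25. Effects in pDCs were not tested against those in cDCs, since the tables were made separately.

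**Figure D5:**
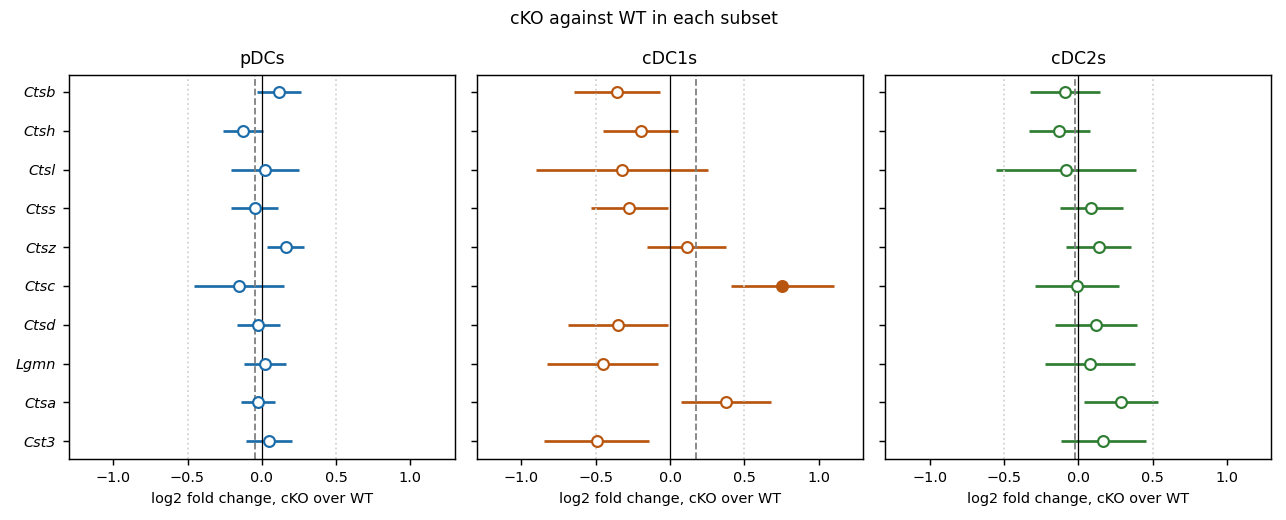
Log2 fold change of cKO over WT for each member in pDCs, cDC1s and cDC2s, with 95% intervals from limma; the filled point was called, the dashed line is the median of all genes and dotted lines mark ±0.5. The 1 filled point is Ctsc in cDC1s at 0.76, and the members of pDCs and cDC2s lie between −0.15 and 0.29.

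Other genes of the degradation pathway were read from lists that do not hold the members. A list of 13 other genes of lysosomal proteolysis held 12 proteases and Ifi30, a thiol reductase that unfolds their substrates, and 9 of the 13 were tested in cDCs. Between WT cDC1s and WT cDC2s, 5 were lower in cDC1s and 3 higher, against 20.8% and 10.9% of all genes. The lower ones were led by Tpp1 (−1.32), a tripeptidyl peptidase, Ctso (−1.25) and the aspartic protease Napsa (−1.05), and included Ifi30 (−0.91), so that 4 of the 8 proteases tested were lower. The higher ones were Cpq (2.64), Ctse (1.33) and Dpp7 (1.31). The list's median was −0.60, and that of all genes −0.17. In cKO cDC1s 1 of the 9 was called, against 22.4% of all genes. It was Dpp7, a dipeptidyl peptidase, which fell, at −1.06 (SE 0.19, adjusted p 0.00178). Its cDC1 effect also differed from its cDC2 effect, by −1.57 (SE 0.24, adjusted p 0.00417). In cDC2s 0 of 9 and in pDCs 0 of 11 were called by limma, against 7.15% and 1.05% of all genes. At an unadjusted p under 0.05 were 1 and 2, against 34.1% and 20.8% of all genes.

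Of the 6 inhibitors other than Cst3 that were tested in cDC1s, 2 fell and 1 rose in cKO libraries, against 6.56% and 15.8% of all genes. Serpinb6b fell by 2.34 on the log2 scale, from a mean of 299 to 58.7 TPM, and Serpinb9, an inhibitor of granzyme B, fell by 2.04, from 146 to 34.6 TPM. Cst7, a cystatin that reaches the lysosome, rose, at 1.09 (SE 0.15, adjusted p 5.68e-04), from a low level, 0.63 to 2.48 TPM. In cDC2s Serpinb6b was lower (−1.45) and Cst7 higher (0.90) in cKO libraries, and in pDCs Serpinb6b was higher (1.33). Serpinb9 in pDCs was called higher (0.99) only with the replicate block (adjusted p 7.49e-04). Between the WT subsets Cst7 was the inhibitor lower in cDC1s (−3.02), and 4 were higher, led by Serpinb6b (3.13) and Serpinb9 (2.64). Over all genes 20.8% were lower and 10.9% higher. Serpinb6b belongs to a family with close copies, so its reads may be split among them.

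A further list held 30 lysosomal hydrolases and their helper proteins, among the latter the activator Gm2a and the precursors Psap and Grn. Of these 30, 9 were higher and 4 lower in WT cDC1s than in WT cDC2s, with a list median of 0.15. Over all genes 10.9% were higher and 20.8% lower, with a median of −0.17. Ppt1, a thioesterase that removes palmitate, was at a mean of 2984 TPM in WT cDC1s and 118 TPM in WT cDC2s, a log2 difference of 4.68 (SE 0.20, adjusted p 4.66e-08). Gusb (3.18) and Arsb (2.48) were the next highest in cDC1s, and Acp5 (−3.37), Acp2 (−1.55) and Pla2g15 (−1.44) the lowest. In cKO cDC1s 4 of 30 fell and 0 rose: Fuca1 (−1.16), Neu1 (−0.80), Lipa (−0.74) and Gm2a (−0.73), the last named outside the naming rule after its value was seen. Of all genes, 6.56% were called lower and 15.8% higher. In cDC2s Psap, the precursor of the saposins, rose from 1724 to 3716 TPM, or 1.09 (SE 0.16, adjusted p 0.0015) as log2, as did Arsb (0.67). These were the 2 of 30 called there, against 7.15% of all genes. In pDCs 0 of 30 were called by limma (1.05% of genes were), and 6 had an unadjusted p under 0.05, as had 20.8% of all genes.

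Genes of the lysosomal membrane and proton pump gave 2 higher and 4 lower of 20 in WT cDC1s against WT cDC2s. Of all genes tested, 10.9% were higher and 20.8% lower, so these counts are close to the background. Npc1, a cholesterol exporter, was lowest at −1.71 and its partner Npc2 highest at 1.34. In cKO cDC1s 1 of 20 was called, against 22.4% of all genes. It was the tetraspanin Cd63, which fell from 78.5 to 7.75 TPM, or −3.21 (SE 0.47, adjusted p 6.71e-04) as log2. In cDC2s 1 of 20 was called, Npc2, which rose (0.50), against 7.15% of all genes. Of the 10 genes that sort enzymes to the lysosome or regulate its genes, Tfeb (−1.78), Tfec (−1.72) and the sorting receptor Sort1 (−1.03) were lower in WT cDC1s. Igf2r, the large mannose 6-phosphate receptor that delivers lysosomal enzymes, was higher at 3.57. In cKO cDC1s Igf2r fell from 15.1 to 3.58 TPM, or −1.81 (SE 0.22, adjusted p 2.52e-04) as log2, and Sort1 fell by 1.14 on the log2 scale, while Gnptab, which makes the sorting tag, rose by 0.76. Sort1 also fell in cDC2s (−0.97). The Igf2r effects of the subsets differed by −1.71 (SE 0.28, adjusted p 0.00591).

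Genes of the MHC class II pathway that the proteases serve, Ciita and the H2-DM and H2-O genes among them, were compared last. In cKO cDC1s 4 of the 10 genes were lower and 0 higher, led by H2-Oa (−1.13), H2-Eb1 (−0.82) and H2-Ob (−0.71). Of all genes, 6.56% were called lower and 15.8% higher there. In cDC2s 1 was called, H2-Ob, which was lower (−0.84), against 7.15% of all genes. In pDCs 0 were called by limma, although 9 of 10 had an unadjusted p under 0.05, as had 20.8% of all genes. The median log2 fold change was −0.51 against −0.05 over all genes. Summed TPM of the list was 30339 to 32819 in WT and 20474 to 26476 in cKO pDCs, while the 9 proteases summed to 10193 to 10755 TPM and 10341 to 11123 TPM. In the same pDC libraries the class II genes did not overlap between genotypes by their sum, and the proteases did. Taken singly, 27.5% of all genes did not overlap in pDCs. Other lists also moved: cDC1 markers summed to 439 to 527 TPM in WT and 366 to 395 TPM in cKO pDCs. Mature DC genes summed to 289 to 318 TPM in WT and 235 to 249 TPM in cKO pDCs. T and NK cell markers were higher in cKO, at 10.2 to 19.6 TPM in WT and 36.3 to 58.8 TPM in cKO. The part of such cells in the class II values was not tested.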

How the data were processed

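RNA-seq was made from sorted splenic DCs in 16 libraries, each pooled from several mice, and the labels gave group and replicate number. According to the methods and the submitters' processing notes, reads were cleaned with SOAPnuke and aligned with HISAT2 2.0.4 (mm10) and Bowtie2 2.2.5, and RSEM 1.2.12 estimated expression. The authors deposited TPM and FPKM per gene in 1 table for pDCs and 1 for cDCs. Counts were not used here, so limma stood in for the count model of the study, with its thresholds. Transcript annotation release was not given in the sources used here.

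From the deposited TPM values, log2(TPM + 1) of genes with a mean of at least 1 TPM was fitted with limma 3.58.1 (R 4.3.3; group means, eBayes with a trend, two-sided, Benjamini-Hochberg over all genes) on 6 pDC libraries (11299 genes) and 10 cDC libraries (11411 genes). Fold changes are on that scale and understate those of low genes. The p-values measure the spread between pools. The deposited FPKM values gave the depth estimate and an alternative. Gene IDs matched RefSeq (GRCm38.p6) for 17079 of 17128 and 17667 of 17721 genes. The columns of both tables were mapped by name, and no 2 libraries were identical. Same-numbered pDC libraries deviated together (r = 0.31, 0.39 and 0.21 over genes), and all other pDC combinations had a negative r. Deviations were taken from the mean of each group, so positive values there lower the other values by construction. In cDC2s, WT 3 with cKO 1, WT 2 with cKO 2 and WT 1 with cKO 3 gave 0.47, 0.25 and 0.19. The labels gave only a number, so a pairing of the pDC libraries is an assumption.

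All 10 members were named, with up to 3 called genes in each direction from every other list, up to 3 called genes within 250 kb of a member, and the 3 genes most correlated with Ctss, Ctsl, Ctsd and Cst3. Members, lists and motifs were chosen with earlier results of these data known. Alternatives were other pseudocounts, filters, scalings and thresholds, FPKM, no trend, fits of the compared groups only, a replicate block and leaving out each library. The fit was tested on simulated data. Figures were drawn with matplotlib 3.10.9 in Python 3.11.15.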

Additional observations from a re-analysis of the deposited data

How the results depend on the processing

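The counts of members called in pDCs (0) and cDC2s (0), and between the WT (8) and cKO (10) cDC subsets, stayed within 1.5 times of the reported count under every alternative tried. Leaving out each library in turn gave 0 in pDCs, cDC2s and for the difference of effects, 0 to 1 in cDC1s, 8 to 9 between WT subsets and 8 to 10 between cKO subsets. The cDC1 count of 1 (Ctsc) became 0 under median-of-ratios scaling, quantile normalization or a log2 fold limit of 1, and without WT library 1 or either cKO library, and 2 (with Cst3) at an adjusted p of 0.05 with no fold limit. That limit also gave 1 for the difference of effects (Ctsc). Where 1 cDC1 library was left, it was assumed to vary like the other groups. The cause of these changes was not tested. Among genes called between WT subsets, 34.4% were higher in cDC1s as deposited, 51.4% under median-of-ratios scaling and 52.3% under quantile normalization, and the median of all genes moved from −0.17 to 0.01 under both. For the difference of effects the split was 47.3%, 26.2% and 30.8%. The 9 proteases lay below 0 and Cst3 above 0 between the subsets under all of them.

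With the replicate number as a block, 0 members were called in pDCs, 1 in cDC1s, 0 in cDC2s, 0 for the difference of effects, 8 between WT subsets and 9 between cKO subsets, where Ctsl had an adjusted p of 0.0114. In pDCs, where same-numbered libraries deviated together, the block changed no member call. Among the other pathway genes and Trim33 it added calls for Serpinb9 and Trim33 in pDCs, and calls over all genes rose from 119 to 335. In cDC2s same-numbered libraries had deviations correlated at −0.25, 0.25 and −0.16, with no common direction. In cDC1s the correlation was −0.23, and with cDC1 libraries alone, an alternative chosen after seeing the data, the crossed pairing called 1 member and 2924 genes and the own numbers 0 members and 1891 genes.

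Of the log2 fold changes of single members, 12 changed sign under at least 1 alternative, 32 times in all, and were not called there: in FPKM Ctsa in pDCs (0.0036), Ctsd in pDCs (0.0057), Ctsc in cDC2s (0.033) and Ctsa for the difference of effects (−0.019), under median-of-ratios scaling Ctsa in pDCs (0.013), Ctsd in pDCs (0.015), Ctsz in cDC1s (−0.059), Ctsc in cDC2s (0.042) and Ctsa for the difference of effects (−0.13), without cKO pDC library 2 Ctsd in pDCs (0.020) and Ctsl in pDCs (−0.0020), under quantile normalization Ctsl in pDCs (−0.056), Ctsc in cDC2s (0.010) and Ctsa for the difference of effects (−0.13), without cKO pDC library 3 Ctsl in pDCs (−0.029). Without WT pDC library 1 Ctsl in pDCs (−0.055) and Cst3 in pDCs (−0.00021), without cKO pDC library 1 Lgmn in pDCs (−0.013), without WT cDC1 library 2 Ctsz in cDC1s (−0.029) and Ctsa for the difference of effects (−0.0019), without cKO cDC2 library 2 Ctsb in cDC2s (0.014), Ctsc in cDC2s (0.082) and Ctsl in cDC2s (0.032), without WT cDC2 library 1 Ctsc in cDC2s (0.0033), Ctsl in cDC2s (0.086) and Ctsz for the difference of effects (0.027). Without WT cDC2 library 3 Ctsc in cDC2s (0.054) and Ctsa for the difference of effects (−0.0088), without cKO cDC2 library 3 Lgmn in cDC2s (−0.024) and Ctsz for the difference of effects (0.015), without cKO cDC1 library 2 Ctsz for the difference of effects (0.0012), without WT cDC1 library 1 Ctsz for the difference of effects (0.12). Over the single libraries left out, Ctsd in pDCs ran from −0.074 to 0.020, Ctsl in pDCs ran from −0.055 to 0.10, Lgmn in pDCs ran from −0.013 to 0.069, Cst3 in pDCs ran from −0.00021 to 0.091, Ctsz in cDC1s ran from −0.029 to 0.26, Ctsb in cDC2s ran from −0.18 to 0.014, Ctsc in cDC2s ran from −0.083 to 0.082, Ctsl in cDC2s ran from −0.26 to 0.086, Lgmn in cDC2s ran from −0.024 to 0.22, Ctsa for the difference of effects ran from −0.0088 to 0.18 and Ctsz for the difference of effects ran from −0.17 to 0.12.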

Other observations

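Genes close to the members on the chromosome were read to see whether a member moved with its surroundings. Within 250 kb of the 10 members, 54 other genes were tested in cDCs and 52 in pDCs. Of them 9.26% were called in cDC1s, 7.41% in cDC2s and 1.92% (1 gene) in pDCs for cKO against WT, and 27.8% between the WT cDC subsets. Over all genes tested the shares were 22.4%, 7.15%, 1.05% and 31.7% in the same order. Near Ctsa, Pltp, a phospholipid transfer protein, was lower in WT cDC1s than in WT cDC2s on the log2 scale, at −5.36 (SE 0.23, adjusted p 4.91e-08), and higher in cKO than in WT cDC2s on the log2 scale, at 2.2 (SE 0.21, adjusted p 1.65e-04). Its cDC1 effect differed from its cDC2 effect by −2.25 (SE 0.33, adjusted p 0.00344). Mmp9, a matrix metalloprotease near Ctsa, was also lower in WT cDC1s (−4.21). Near Ctsb, the Src-family kinase gene Blk was higher in cKO pDCs, at 1.59 (SE 0.11, adjusted p 9.52e-04), and lower in cKO cDC2s, at −1.90 (SE 0.20, adjusted p 3.09e-04), and its effects in the cDC subsets differed by 2.2 (SE 0.31, adjusted p 0.00308). In the same comparisons Ctsb was at 0.11 in pDCs and −0.09 in cDC2s and was not called. Near Ctsl, Slc35d2 was lower in cKO cDC1s, at −1.27 (SE 0.13, adjusted p 1.09e-04), as were Habp4 (−0.92) and, near Ctsa, Cd40 (−0.94). The other 2 called in cDC1s were higher, Mrpl23 near Ctsd at 0.89 (SE 0.08, adjusted p 8.25e-05) and Nelfcd near Ctsz at 0.56 (SE 0.12, adjusted p 0.0051), both named after their values were seen. Ctss lies on chromosome 3, as does the deleted gene Trim33 (103279293 to 103358770).

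The genes whose log2(TPM + 1) followed 4 members most closely over the 10 cDC libraries were listed from 11411 genes. For Ctsd these were Nr1h3, the oxysterol receptor (r = 0.995), Lst1 (0.994) and Clec4n (0.993), and for Ctss they were Lst1 (0.995), Slamf6 (0.994) and Ifitm1 (0.994). For Ctsl they were the complement gene C2 (0.976), the iron exporter Slc40a1 (0.972) and the mannose receptor Mrc1 (0.971). For Cst3 they were F2rl2 (0.998), Txndc15 (0.997) and Mfsd14a (0.996). The 10 libraries fall into 2 subsets and 2 genotypes, so the points share subset and genotype, and no p is given. Slc40a1, which followed Ctsl, is itself one of the 17 macrophage and monocyte markers, and its mean was 38.9 TPM in WT cDC2s and 4.87 TPM in WT cDC1s.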
